A study of Homo sapiens with 36 samples.

Results

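The genes that write and erase DNA methylation were followed in LNCaP cells, a widely used human line of androgen-dependent prostate cancer, after inhibition of the cell cycle kinase CDK4. The members were 8 genes, taken as the rows of the normalised count table whose Ensembl identifier carries the symbol DNMT1, UHRF1, HELLS, DNMT3A, DNMT3B, TET1, TET2 or TET3 in GENCODE release 44, out of 29872 genes in the table. All 8 were in the table and passed the filter on low values. LNCaP cells received vehicle, the CDK4-selective inhibitors AU2-94 at 1 or 2 µM or atirmociclib at 1 or 2 µM, or the dual CDK4/6 inhibitor ribociclib at 2 µM, and were collected after 24 h or 72 h. These 12 groups held 3 biological replicates each, 36 total RNA libraries in all. The labels also give the vehicle groups a dose of 2 µM. The 72 h wells started with fewer cells than the 24 h wells, so time and seeding density cannot be told apart. All groups are 1 cell line, and nothing here measures methylation itself: the values are transcript levels.

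Across the libraries the total normalised count was 20675156 to 22692555 and mitochondrial genes took 6.34% to 8.66% of it. All 8 markers of luminal prostate cancer cells were present, at a summed level of 104649 to 187347 normalised counts per library. Defining markers of other cell types were at or near 0, with PTPRC, TP63, PECAM1 and LUM never above 7.09, whereas KRT14 (up to 88.6), COL1A1 (194 to 644) and VWF (184 to 713) were detected.

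DNA methylation in mammals is added to cytosine in CpG pairs by DNA methyltransferases. DNMT1 copies the pattern onto the new strand after replication, guided by UHRF1, which binds hemimethylated CpG sites and marks histone H3 to recruit DNMT1. HELLS, also called LSH, is a chromatin remodeller of the SNF2 family that opens nucleosomes for methylation. DNMT3A and DNMT3B set new methylation, and the TET enzymes TET1, TET2 and TET3 oxidise methylcytosine, the first step of its removal. Transcription of many replication genes is driven by E2F factors, which the RB protein holds back until CDK4 or CDK6 phosphorylates it.

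DNMT1 (ENSG00000130816) lies at chr19:10133342-10231286 on the minus strand of GRCh38 and UHRF1 (ENSG00000276043) at chr19:4903080-4962154 on the plus strand. HELLS (ENSG00000119969) lies at chr10:94545329-94613905, plus strand. The start regions of these genes are printed because, of the 8 genes, they were the ones whose RefSeq promoter windows (250 bases before to 50 after the start, GRCh38.p14) held E2F-type letters. The letters searched were TTTCCCGC, TTTGGCGC, TTTCGCGC and TTTGCCGC, on both strands, and capitals mark a match. The windows are chr19:10194904-10195203 (minus strand) for DNMT1, chr19:4909251-4909550 (plus) for UHRF1 and chr10:94545538-94545837 (plus) for HELLS, each at the start of the canonical transcript.
DNMT1: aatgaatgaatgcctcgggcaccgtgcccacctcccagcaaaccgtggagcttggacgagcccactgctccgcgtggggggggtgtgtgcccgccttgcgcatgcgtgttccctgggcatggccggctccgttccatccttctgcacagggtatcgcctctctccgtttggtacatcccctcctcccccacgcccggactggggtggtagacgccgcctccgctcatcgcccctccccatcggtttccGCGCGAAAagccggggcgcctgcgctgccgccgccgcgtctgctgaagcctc
UHRF1: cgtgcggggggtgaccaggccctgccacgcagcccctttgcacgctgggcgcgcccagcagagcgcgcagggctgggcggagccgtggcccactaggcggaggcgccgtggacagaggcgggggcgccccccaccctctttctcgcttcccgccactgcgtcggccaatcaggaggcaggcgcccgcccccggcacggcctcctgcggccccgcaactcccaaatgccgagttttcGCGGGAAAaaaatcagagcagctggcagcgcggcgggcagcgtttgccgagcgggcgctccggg
HELLS: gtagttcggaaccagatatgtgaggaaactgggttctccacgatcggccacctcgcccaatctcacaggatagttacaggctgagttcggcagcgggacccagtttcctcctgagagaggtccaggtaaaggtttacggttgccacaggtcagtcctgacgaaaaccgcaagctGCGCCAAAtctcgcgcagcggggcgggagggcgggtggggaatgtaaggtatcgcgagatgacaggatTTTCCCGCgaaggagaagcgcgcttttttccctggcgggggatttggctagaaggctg
The match in DNMT1 runs from 2 bases before the start to position 5 after it, and that in UHRF1 from 14 to 7 bases before the start. HELLS holds a match from 76 to 69 and another from 8 to 1 bases before the start. A further UHRF1 window, from another start 643 bases downstream, also held a match. Of all 35116 promoter windows 3.31% held such letters, and of 27305 genes 3.99% did. The 14 windows of DNMT3A, DNMT3B, TET1, TET2 and TET3 held none, and the only DNMT3B window lies 17467 bases from the start of its canonical transcript. These are matches of letters and not measured binding. Each form searched contains a CpG, and the shares of all windows and genes are not matched for CpG content. The printed DNMT1, UHRF1 and HELLS windows held 30, 36 and 22 CpG, against a median of 14 over all windows. The windows of DNMT3A, DNMT3B, TET1, TET2 and TET3 held 3 to 46.

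The other members lie at chr2:25227855-25342590, minus strand (DNMT3A, ENSG00000119772), chr20:32762385-32809359, plus strand (DNMT3B, ENSG00000088305), chr10:68560337-68694487, plus strand (TET1, ENSG00000138336), chr4:105145875-105279816, plus strand (TET2, ENSG00000168769) and chr2:73984910-74108176, plus strand (TET3, ENSG00000187605). Exons of DNMT1 share 83 bases on the same strand with S1PR2, listed at 105 to 209 normalised counts. A stretch of 442 bases of HELLS is identical to ENSG00000244332, whose exons overlap those of HELLS by 438 bases on the same strand. ENSG00000244332 was listed at 7.55 or below. Exons of TET3 share 390 bases on the same strand with ENSG00000235499. UHRF1 has a near-identical copy over 1423 bases at 99.4% identity. Neither that copy nor ENSG00000235499 is in the table. How the counting shared reads between such stretches is not given in the sources used here.

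In vehicle at 24 h, DNMT1 had the highest level per kb of canonical transcript, 1000 normalised counts per kb, followed by HELLS at 773 and UHRF1 at 458. TET3 at 177 and TET2 at 168 came next, and their libraries overlapped. DNMT3A at 105 and DNMT3B at 78.3 also overlapped, and TET1 was lowest at 22.0. At 72 h the order of the means was the same, from 963 for DNMT1 to 21.9 for TET1, and only DNMT3A and DNMT3B overlapped. With the length of all annotated exons in place of the canonical transcript, UHRF1 came before DNMT1 at both times. HELLS then had 170 at 24 h and 175 at 72 h, close to TET3 at 164 and 172.

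The first question was whether each treatment changed the members against the vehicle of its time point. The maintenance genes DNMT1, UHRF1 and HELLS were lower in every treatment at both times. DNMT3B was called lower in 5 of 10 comparisons, and at 24 h its log2 fold change was negative in every treatment (-0.95 to -0.54). DNMT3A and TET1 were called higher in part of the treatments, TET2 was called lower in 3 of 10 comparisons and TET3 was not called anywhere. A gene was called at an adjusted p of at most 0.05 by limma over all genes tested. At 24 h, AU2-94 at 1 µM gave 4 lower and 2 higher of the 8 members, where 13.5% and 14.3% of 16137 genes were lower and higher. AU2-94 at 2 µM gave 4 lower and 1 higher, against 14.9% and 16.0% of all genes. For atirmociclib at 1 µM the members split into 5 lower and 1 higher (15.4% and 16.6% of all genes), and at 2 µM into 4 lower and 0 higher (16.2% and 18.6%). Ribociclib gave 3 lower and 0 higher, against 15.2% and 16.8%. The median log2 fold change of the 8 members lay between -0.60 and -0.38, and that of all genes between -0.0032 and 0.0049.

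At 72 h, AU2-94 gave 3 lower and 2 higher at 1 µM (17.0% and 15.4% of 16341 genes) and 3 lower and 2 higher at 2 µM (15.3% and 14.2%). Atirmociclib gave 4 lower and 2 higher at 1 µM (19.8% and 20.0%) and 4 lower and 0 higher at 2 µM (19.6% and 20.9%). Ribociclib gave 4 lower and 1 higher, against 15.4% and 15.5%. The medians of the members lay between -0.36 and -0.10, and those of all genes between -0.0083 and 0.0059. With a log2 fold change of -1 or below asked as well, the 24 h counts of lower members were 2, 3, 3, 3 and 3 in the same order of treatments, where 2.40%, 2.94%, 4.22%, 4.82% and 3.66% of all genes passed. At 72 h they were 0, 0, 2, 2 and 1, where 0.869%, 0.838%, 2.67%, 3.67% and 1.54% passed. No member reached a log2 fold change of 1 upward.

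**Figure D1:**
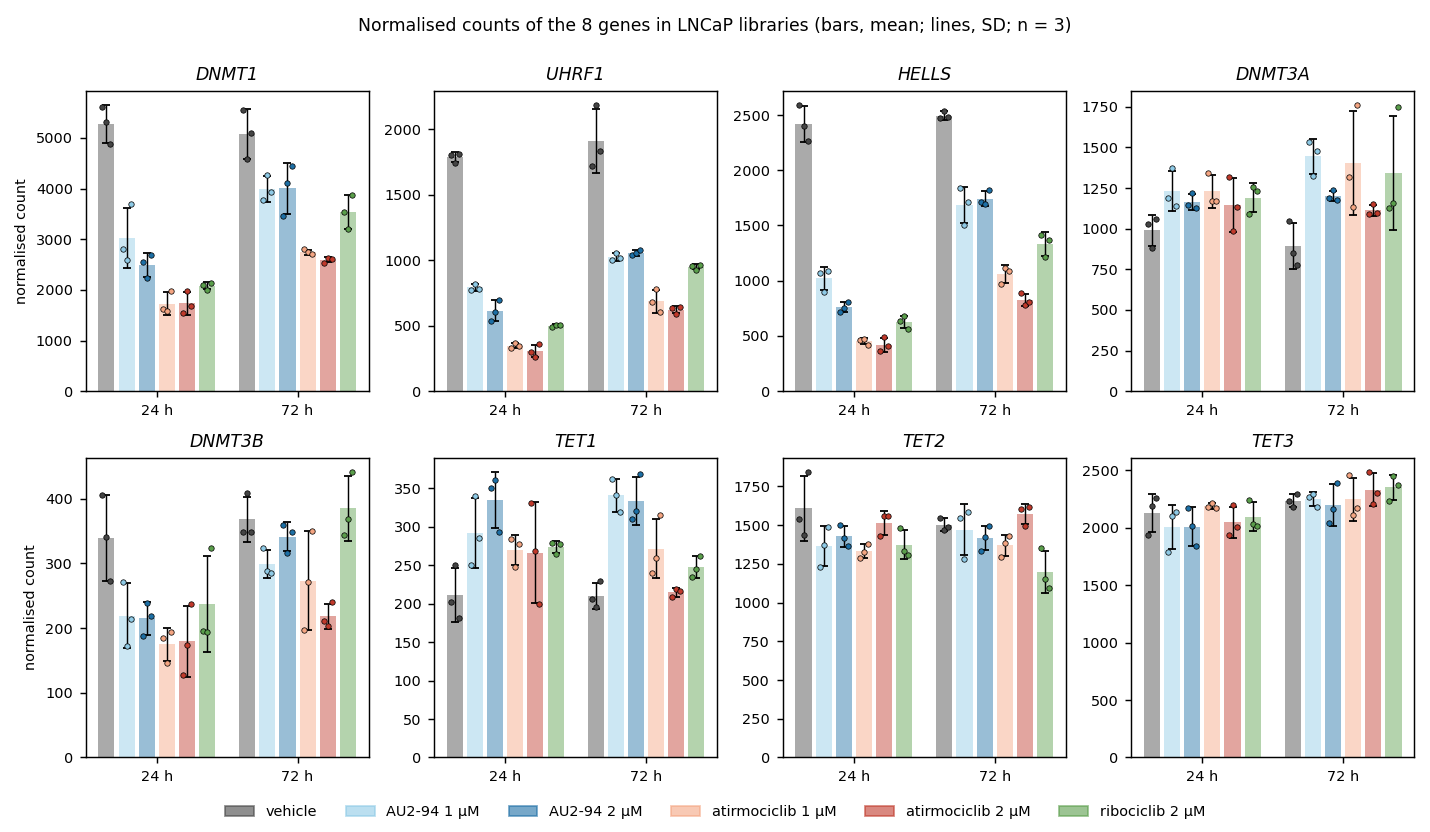
Normalised count (y axis, from 0) of each of the 8 genes in the 6 treatment groups at 24 h and 72 h; points are libraries, bars group means and lines the SD (n = 3). DNMT1, UHRF1 and HELLS lie below vehicle in every treated library, and TET3 libraries overlap vehicle in every group.

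UHRF1 had 1801, 1744 and 1811 normalised counts in the 3 vehicle libraries at 24 h, in order of replicate number. It had 771, 821 and 782 with AU2-94 at 1 µM and 536, 607 and 696 at 2 µM. It had 333, 369 and 341 with atirmociclib at 1 µM, 295, 263 and 358 at 2 µM, and 490, 506 and 507 with ribociclib. All 15 treated libraries were below all 3 vehicle libraries, and the atirmociclib libraries were the lowest, at group means of 19.5% and 17.1% of vehicle. The log2 fold changes ran from -1.17 with AU2-94 at 1 µM to -2.56 with atirmociclib at 2 µM (SE 0.10, largest adjusted p = 8.10e-08).

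At 72 h vehicle gave 1717, 2180 and 1830 for UHRF1. AU2-94 gave 999, 1053 and 1018 at 1 µM and 1036, 1052 and 1078 at 2 µM. Atirmociclib gave 679, 776 and 602 at 1 µM and 634, 591 and 641 at 2 µM, and ribociclib 958, 927 and 963. Every treated library was again below every vehicle library, with group means at 32.6% to 55.3% of vehicle. Log2 fold changes lay between -1.61 and -0.85 (SE 0.09, largest adjusted p = 8.09e-07). In these bulk libraries, fewer cells that express a gene and less RNA per cell cannot be told apart.

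HELLS had 2586, 2398 and 2267 in vehicle at 24 h. It had 1073, 898 and 1091 with AU2-94 at 1 µM, 719, 751 and 808 at 2 µM and 639, 677 and 566 with ribociclib. It had 464, 473 and 422 with atirmociclib at 1 µM and 364, 488 and 411 at 2 µM. No treated library reached the vehicle range, and group means were 42.2% of vehicle at most. The log2 fold changes ran from -1.25 with AU2-94 at 1 µM to -2.53 with atirmociclib at 2 µM (SE 0.10, largest adjusted p = 5.51e-08).

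At 72 h HELLS had 2469, 2538 and 2480 in vehicle, 1836, 1505 and 1715 with AU2-94 at 1 µM and 1708, 1697 and 1824 at 2 µM. It had 971, 1119 and 1089 with atirmociclib at 1 µM, 885, 775 and 809 at 2 µM and 1415, 1214 and 1369 with ribociclib. Vehicle stood above all 15 treated libraries, and the AU2-94 groups were closest to it at 67.5% and 69.8%. Against vehicle the log2 fold changes lay between -1.60 and -0.52 (SE 0.08, largest adjusted p = 6.64e-05).

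DNMT1 had 5617, 5321 and 4889 in vehicle at 24 h, 2810, 2581 and 3692 with AU2-94 at 1 µM and 2551, 2238 and 2688 at 2 µM. It had 1615, 1585 and 1982 with atirmociclib at 1 µM, 1542, 1985 and 1681 at 2 µM and 2101, 2007 and 2141 with ribociclib. The groups did not overlap vehicle, and means were 32.7% to 57.4% of it. The log2 fold changes ran from -0.82 with AU2-94 at 1 µM to -1.62 with atirmociclib at 1 µM (SE 0.12, largest adjusted p = 4.48e-05).

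At 72 h DNMT1 had 5552, 4579 and 5098 in vehicle, 3768, 4275 and 3934 with AU2-94 at 1 µM and 3452, 4120 and 4448 at 2 µM. It had 2800, 2739 and 2701 with atirmociclib at 1 µM, 2535, 2635 and 2609 at 2 µM and 3537, 3196 and 3874 with ribociclib. All 15 treated libraries were below vehicle, but the highest AU2-94 library, 4448, was close to the lowest vehicle library, 4579. The log2 fold changes lay between -0.96 and -0.34 (SE 0.09, largest adjusted p = 0.00494). The calls of DNMT1, UHRF1 and HELLS against vehicle held under every alternative run.

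UHRF1 and HELLS were lower relative to DNMT1 in treated libraries. The log2 ratio of UHRF1 to DNMT1 was lower in the 15 treated than in the 3 vehicle libraries by -0.60 at 24 h and by -0.55 at 72 h, with an adjusted p of 0.00613 at each time (exact permutation test over libraries, two-sided, adjusted over 10 tests). HELLS to DNMT1 differed by -0.67 at 24 h (adjusted p = 0.00613, exact permutation) and by -0.36 at 72 h (adjusted p = 0.0210, exact permutation), where 13 of 15 treated libraries were below all vehicle libraries. At 72 h the HELLS ratio lost its call without vehicle replicate 1 (-0.43), 2 (-0.27) or 3 (-0.37), where fewer vehicle libraries also raise the smallest p. The treated libraries are 5 different treatments pooled, and the smallest p the test allows is 0.00245 before adjustment.

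**Figure D2:**
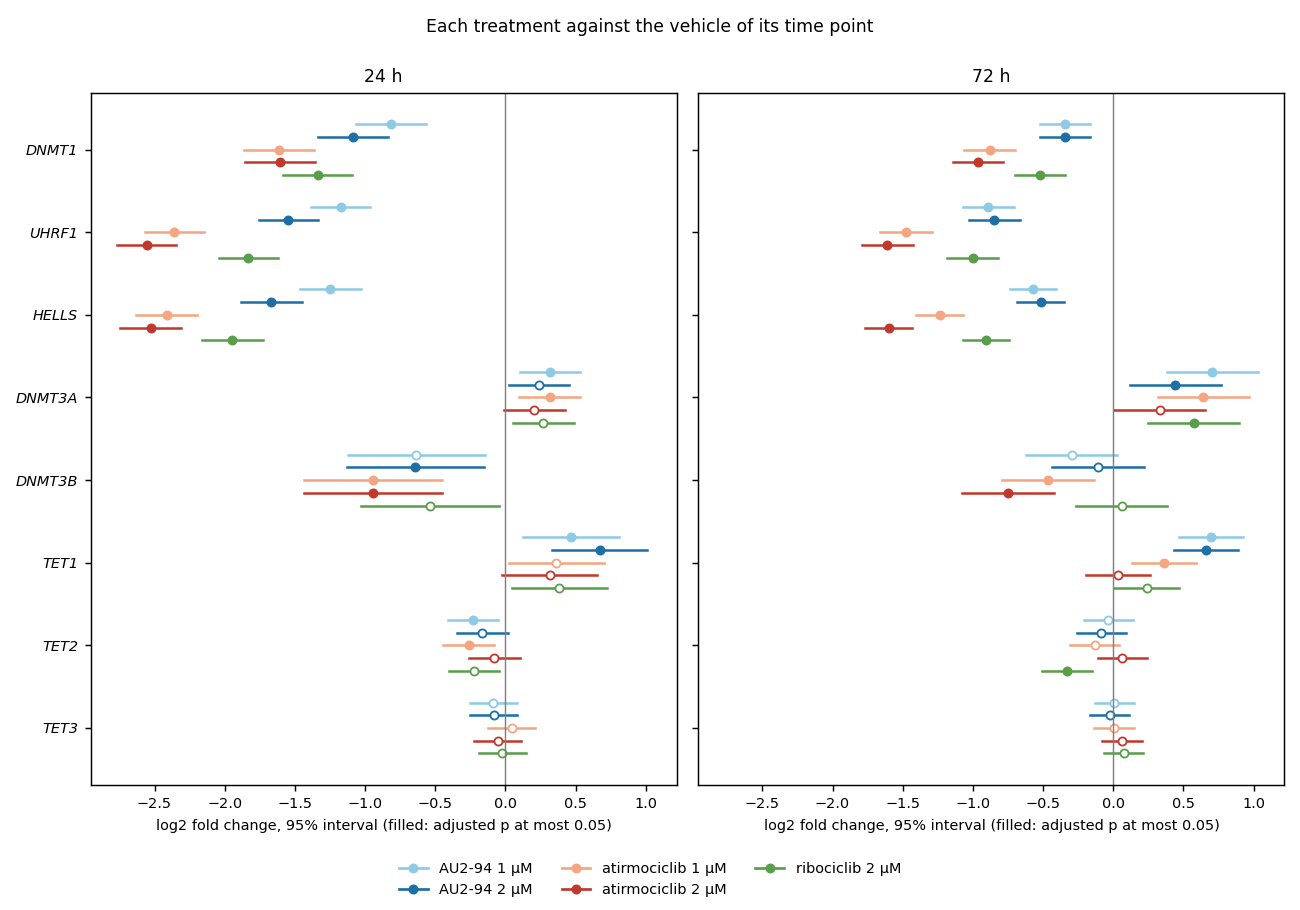
Log2 fold change against vehicle (x axis, with 95% intervals) for the 8 genes and 5 treatments at 24 h and 72 h; filled points have an adjusted p of at most 0.05. UHRF1 and HELLS reach -2.56 and -2.53 at 24 h, and TET3 stays between -0.09 and 0.07.

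DNMT3A, a de novo methyltransferase, had 1029, 878 and 1061 in vehicle at 24 h. Treated libraries ran from 988 to 1374, and 14 of 15 were above all vehicle libraries. It was called higher with AU2-94 at 1 µM (1187, 1374 and 1137, log2 fold change 0.32, SE 0.10, adjusted p = 0.0270) and with atirmociclib at 1 µM (1344, 1173 and 1170, log2 fold change 0.31, adjusted p = 0.0245). In the other 3 treatments the log2 fold change was 0.21 to 0.27 and the adjusted p 0.0517 to 0.129. Of these, ribociclib was called under 10 of 29 alternatives, and AU2-94 and atirmociclib at 2 µM under 1 each. The call with AU2-94 was lost without its replicate 2 (0.24) or without vehicle replicate 2 (0.23), and that with atirmociclib without its replicate 1 (0.25) or vehicle replicate 2 (0.23).

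At 72 h DNMT3A had 1050, 849 and 776 in vehicle, and all 15 treated libraries, 1090 to 1758, were above them. The log2 fold change was 0.71 with AU2-94 at 1 µM (1533, 1326 and 1477, SE 0.15, adjusted p = 0.00169) and 0.64 with atirmociclib at 1 µM (1319, 1132 and 1758, adjusted p = 0.00274). With AU2-94 at 2 µM it was 0.44 (adjusted p = 0.0380). With ribociclib it was 0.57 (adjusted p = 0.00812), where replicate 3 at 1748 stood apart from 1125 and 1158, and without it the value was 0.37 (adjusted p = 0.0595). Atirmociclib at 2 µM gave 0.33 (adjusted p = 0.0972). The AU2-94 2 µM call was lost on leaving out any replicate of that group (0.42 to 0.46) or vehicle replicate 2 (0.41) or 3 (0.35). Of the 6 DNMT3A calls, 2 held under every alternative, those at 1 µM at 72 h.

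DNMT3B, the other de novo enzyme, had 405, 341 and 272 in vehicle at 24 h, and 14 of 15 treated libraries were below all of them. Atirmociclib gave 185, 146 and 194 at 1 µM and 127, 174 and 237 at 2 µM, log2 fold changes of -0.95 and -0.94 (SE 0.23, adjusted p = 0.00431 and 0.00404). AU2-94 at 2 µM gave 188, 239 and 219 (-0.64, adjusted p = 0.0443). AU2-94 at 1 µM (-0.63, adjusted p = 0.0504) and ribociclib (-0.54, adjusted p = 0.0897) missed the threshold. The first was called under 10 of 29 alternatives and the second under 2. The AU2-94 2 µM call was lost on leaving out any replicate of that group (-0.72 to -0.55), vehicle replicate 1 (-0.50) or 2 (-0.63), or AU2-94 1 µM replicate 3, atirmociclib 1 µM replicate 1 or atirmociclib 2 µM replicate 2 (-0.64 each). Ribociclib without its replicate 3 (324 against 196 and 194) gave -0.78 (adjusted p = 0.0193).

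At 72 h DNMT3B had 348, 408 and 348 in vehicle. With atirmociclib at 2 µM it had 210, 204 and 241, a log2 fold change of -0.75 (SE 0.15, adjusted p = 0.000726). With atirmociclib at 1 µM it had 197, 272 and 350 (-0.46, adjusted p = 0.0230), a call lost without replicate 1 (-0.25) or vehicle replicate 2 (-0.39). AU2-94 gave -0.30 and -0.11 and ribociclib 0.06, none called. The log2 ratio of DNMT3B to DNMT3A was lower in treated libraries by -1.01 at 24 h (adjusted p = 0.00980, exact permutation) and by -0.85 at 72 h (adjusted p = 0.00613, exact permutation).

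TET1, which carries a CXXC domain that binds CpG-rich DNA, had 202, 250 and 182 in vehicle at 24 h. AU2-94 gave 250, 340 and 286 at 1 µM (log2 fold change 0.47, SE 0.16, adjusted p = 0.0388) and 351, 361 and 294 at 2 µM (0.67, adjusted p = 0.00385). The other 3 treatments gave 0.31 to 0.38, none called. Of 29 alternatives, 3 called atirmociclib at 1 µM, 2 called it at 2 µM and 4 called ribociclib. Quantile normalisation called all 3 treatments (0.45 to 0.48). At 72 h vehicle gave 206, 195 and 229, and AU2-94 gave 362, 341 and 319 at 1 µM (0.69, SE 0.11, adjusted p = 8.25e-05) and 310, 321 and 369 at 2 µM (0.66, adjusted p = 0.000159). Every AU2-94 library at 72 h was above vehicle, as was every library with atirmociclib at 1 µM or with ribociclib (235 to 262). In all, 12 of 15 treated libraries were above all vehicle libraries, and the group with atirmociclib at 2 µM overlapped vehicle. Atirmociclib at 1 µM gave 240, 260 and 315 (0.36, adjusted p = 0.0131) and at 2 µM 208, 219 and 217 (0.03, adjusted p = 0.836), and ribociclib gave 0.24 (adjusted p = 0.111).

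The TET1 call with AU2-94 at 1 µM at 24 h was lost without its replicate 2 (0.35) or 3 (0.48), or vehicle replicate 1 (0.44) or 3 (0.36). That with atirmociclib at 1 µM at 72 h was lost without its replicate 3 (0.25) or vehicle replicate 2 (0.31). Atirmociclib at 2 µM at 24 h without its replicate 3 gave 0.51 (adjusted p = 0.0174). The 3 other TET1 calls, all with AU2-94, held under every alternative.

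TET2, which has no CXXC domain of its own, had 1542, 1437 and 1845 in vehicle at 24 h. It was called lower with AU2-94 at 1 µM (-0.23, SE 0.09, adjusted p = 0.0489) and atirmociclib at 1 µM (1290, 1328 and 1380, -0.26, adjusted p = 0.0240). The first was lost under 21 alternatives, among them the replicate block (-0.23, adjusted p = 0.0539), and without vehicle replicate 3 it was -0.13. The second was lost without vehicle replicate 3 (-0.16) or its own replicate 1 (-0.24) or 2 (-0.26). Ribociclib at 24 h missed the threshold (-0.22, adjusted p = 0.0541) and was called under 7 of 29 alternatives. AU2-94 and atirmociclib at 2 µM were called under none. At 72 h ribociclib gave 1352, 1150 and 1095 against 1548, 1467 and 1490 in vehicle (-0.33, SE 0.08, adjusted p = 0.00543), which held under every alternative. The other 4 treatments at 72 h lay between -0.13 and 0.06.

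TET3, the third member of the family, was called in no comparison with vehicle. Vehicle gave 1940, 2192 and 2254 at 24 h and 2234, 2175 and 2289 at 72 h, with treated libraries between 1786 and 2240 at the first time and between 2038 and 2485 at the second. Every treatment group overlapped vehicle. The log2 fold changes were -0.09 to 0.04 at 24 h (SE 0.08) and -0.03 to 0.07 at 72 h (SE 0.07), and 0 of 10 comparisons had an unadjusted p under 0.05. The mean log2 ratio of TET1 to TET2 over the treated libraries was higher by 0.63 at 24 h (adjusted p = 0.0204, exact permutation) and by 0.50 at 72 h (adjusted p = 0.0429, exact permutation). By treatment the 72 h difference ran from -0.03 with atirmociclib at 2 µM to 0.75, and 12 of 15 treated libraries were above all vehicle libraries and 1 below. TET3 to TET2 differed by 0.15 and 0.13 (adjusted p = 0.0790 and 0.289, exact permutation), which did not pass. The TET1 ratio at 24 h was lost without vehicle replicate 1 (0.63) or 3 (0.43), that at 72 h without any vehicle, AU2-94, atirmociclib 1 µM or ribociclib library (0.47 to 0.57), and the TET3 ratio at 24 h was gained without vehicle replicate 2 (0.25).

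The second question was whether the inhibitors differed at matched dose and time, in 8 pairs of groups. Atirmociclib left DNMT1, UHRF1 and HELLS lower than AU2-94 did at both doses and times, and AU2-94 left TET1 higher than atirmociclib or ribociclib at 2 µM and 72 h. Atirmociclib at 1 µM against AU2-94 at 1 µM called 3 members lower and 0 higher at 24 h (3.16% and 1.48% of all genes) and 3 lower and 0 higher at 72 h (3.70% and 4.53%). At 2 µM it called 3 lower and 0 higher at 24 h (4.31% and 5.12%) and 5 lower and 0 higher at 72 h (8.73% and 11.1%). At 24 h the differences at 1 µM were -0.80 for DNMT1 (95% interval -1.05 to -0.55, adjusted p = 0.000260), -1.19 for UHRF1 (-1.40 to -0.98, adjusted p = 2.45e-07) and -1.17 for HELLS (-1.38 to -0.95, adjusted p = 4.73e-07). At 2 µM they were -0.53, -1.01 and -0.86 (adjusted p = 0.00868, 5.79e-06 and 4.49e-05). At 72 h they were -0.54, -0.58 and -0.67 at 1 µM and -0.62, -0.76 and -1.08 at 2 µM, with a largest adjusted p of 0.000383.

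The 72 h comparison at 2 µM also called DNMT3B (-0.64, 95% interval -0.97 to -0.32, adjusted p = 0.00596) and TET1 (-0.63, -0.86 to -0.40, adjusted p = 0.000407). At 1 µM TET1 differed by -0.33 (adjusted p = 0.0703). DNMT3A was called in 0 of the 8 pairs (0 with an unadjusted p under 0.05), with differences of -0.11 to 0.24.

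Ribociclib against AU2-94 at 2 µM called 0 members at 24 h, where 0.0186% of all genes were lower and 0.0186% higher. The differences were -0.26 for DNMT1 (95% interval -0.50 to -0.01), -0.28 for UHRF1 (-0.49 to -0.07) and -0.28 for HELLS (-0.49 to -0.06), each with an unadjusted p under 0.05 and adjusted p of 0.249 to 0.385. At 72 h 2 members were lower and 0 higher (1.38% and 1.96% of all genes), HELLS by -0.39 (-0.55 to -0.22, adjusted p = 0.0106) and TET1 by -0.43 (-0.65 to -0.20, adjusted p = 0.0394). The HELLS call was lost without AU2-94 replicate 3 (-0.36) or ribociclib replicate 2 (-0.32), and the TET1 call without any of the 6 libraries compared (-0.47 to -0.35) or AU2-94 1 µM replicate 2 (-0.43).

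Ribociclib against atirmociclib at 2 µM called 0 members lower and 2 higher at 24 h (1.83% and 2.81% of all genes), UHRF1 by 0.72 (0.51 to 0.93, adjusted p = 0.000287) and HELLS by 0.58 (0.36 to 0.80, adjusted p = 0.00245). At 72 h 1 was lower and 4 higher (4.83% and 4.35%). DNMT1 differed by 0.44 (adjusted p = 0.00217), UHRF1 by 0.61 (adjusted p = 0.000124), HELLS by 0.69 (adjusted p = 9.57e-06) and DNMT3B by 0.81 (0.49 to 1.14, adjusted p = 0.00203). TET2 was lower with ribociclib by -0.39 (-0.57 to -0.22, adjusted p = 0.00472).

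**Figure D3:**
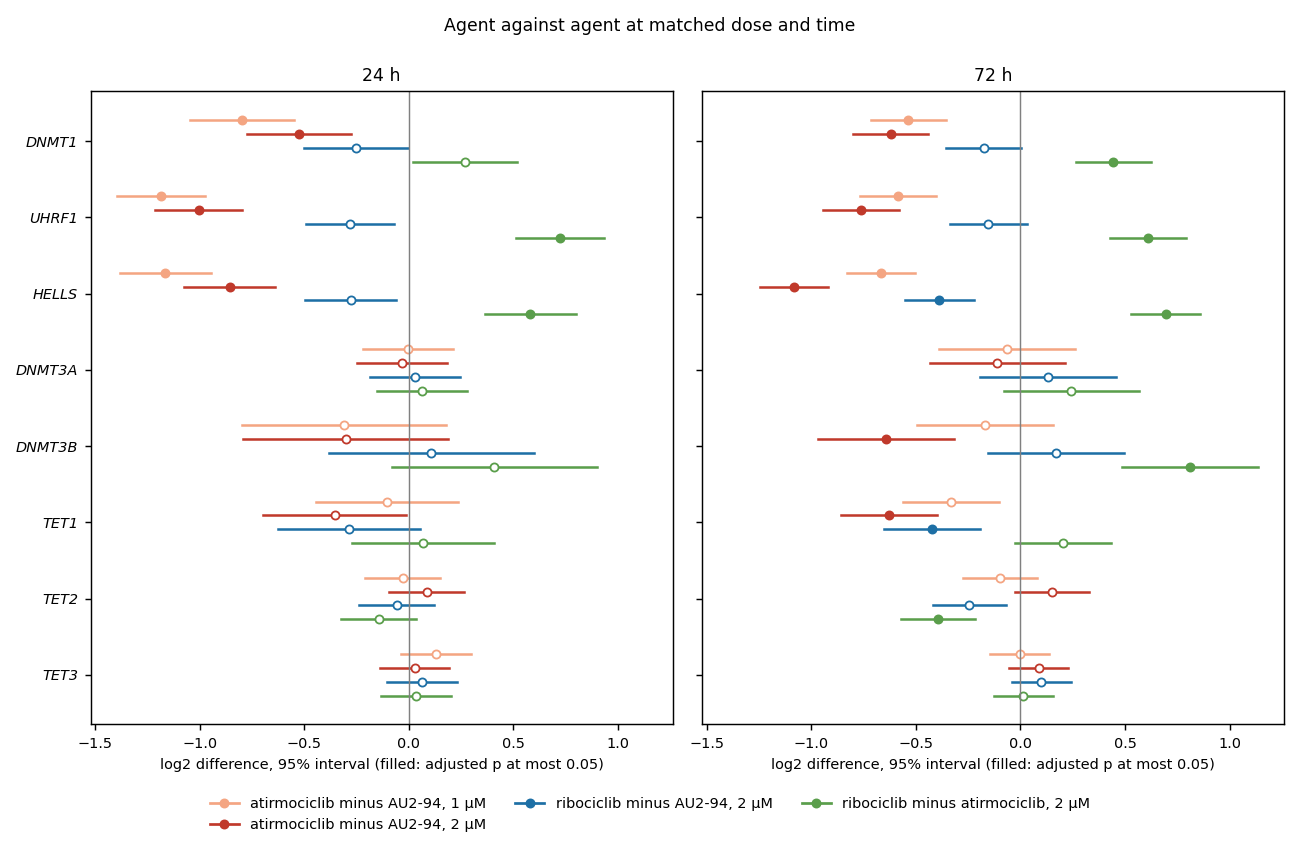
Log2 difference between 2 inhibitors at the same dose and time (x axis, with 95% intervals) for the 8 genes; filled points have an adjusted p of at most 0.05. Atirmociclib minus AU2-94 lies below 0 for DNMT1, UHRF1 and HELLS at both doses and times, from -1.19 to -0.53.

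The dose of an inhibitor gave 1 call in 32 comparisons of 2 µM with 1 µM. AU2-94 called 0 members at 24 h (0.409% of all genes in either direction) and 0 at 72 h (0.00%), and atirmociclib 0 at 24 h (0.0124%) and 1 at 72 h (2.19%). The call was HELLS with atirmociclib at 72 h, by -0.36 (95% interval -0.53 to -0.20, adjusted p = 0.0209). It was lost without atirmociclib 1 µM replicate 2 (-0.32) or 3 (-0.34), or 2 µM replicate 2 (-0.32) or 3 (-0.35). AU2-94 at 24 h gave -0.42 for HELLS (-0.64 to -0.20, adjusted p = 0.103) and -0.38 for UHRF1 (-0.59 to -0.17, adjusted p = 0.164). The first was called without AU2-94 1 µM replicate 2 (-0.51) and the second without AU2-94 2 µM replicate 3 (-0.47). In all, 7 of the 32 comparisons had an unadjusted p under 0.05.

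The third question was whether the effects changed between 24 h and 72 h. DNMT1, UHRF1 and HELLS lay closer to vehicle at 72 h, and the change of effect, the 72 h minus the 24 h log2 fold change, was called higher in 14 of 15 tests of these genes. With AU2-94 at 1 µM 2 members were called higher and 0 lower (10.1% and 11.5% of 16850 genes), and at 2 µM 3 and 0 (9.26% and 9.28%). With atirmociclib 3 were called higher and 0 lower at 1 µM (11.3% and 10.6%) and at 2 µM (11.7% and 9.96%), and with ribociclib 3 and 0 (10.5% and 9.66%). The change for HELLS ran from 0.68 to 1.18 (SE 0.13, largest adjusted p = 0.000357) and for DNMT1 from 0.47 to 0.82 (SE 0.15, largest adjusted p = 0.0270). For UHRF1 it was 0.70 to 0.95 in 4 treatments (SE 0.13, largest adjusted p = 0.000276) and 0.28 with AU2-94 at 1 µM (adjusted p = 0.138). The last was called without vehicle 72 h replicate 2 (0.38).

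The other 5 members were called in 0 of 25 such tests (0 with an unadjusted p under 0.05), with changes of -0.28 to 0.60. The change for DNMT3B with ribociclib (0.60, adjusted p = 0.162) was called without ribociclib 24 h replicate 3 (0.84, adjusted p = 0.0405). Vehicle at 72 h against 24 h called 0 of the 8 members, where 7.50% of all genes were called in either direction. The differences were -0.16 for DNMT3A to 0.13 for DNMT3B, with an unadjusted p under 0.05 in 0 of them. The DNMT1 change with AU2-94 at 1 µM was lost without replicate 1 (0.43) or 2 (0.37) of that group at 24 h, replicate 2 at 72 h (0.42), vehicle replicate 1 at 24 h (0.43) or vehicle replicate 2 at 72 h (0.40).

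**Figure D4:**
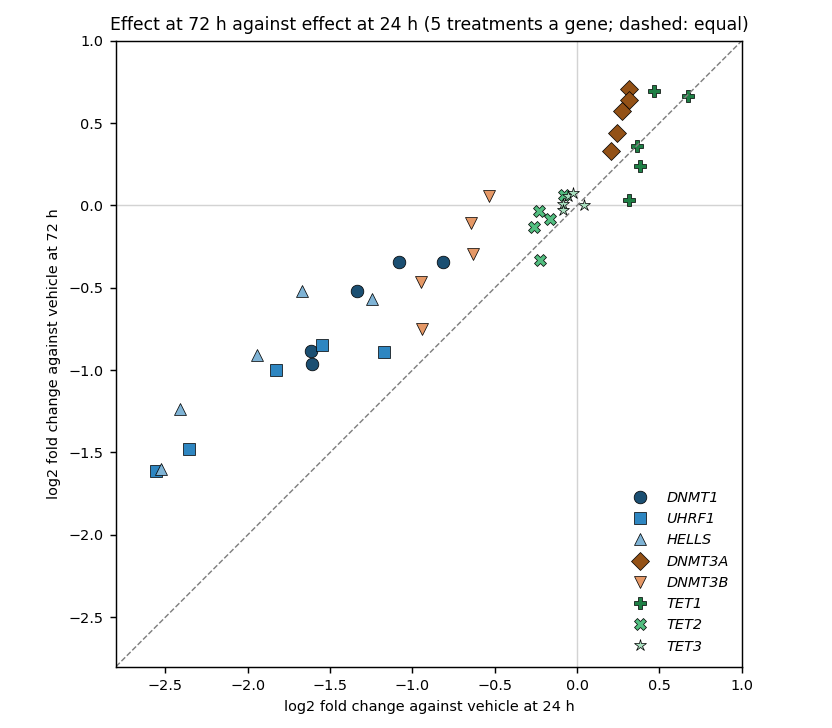
Log2 fold change against vehicle at 72 h (y axis) plotted against that at 24 h (x axis), 1 point for each of 5 treatments and 8 genes; the dashed line marks equal effects. DNMT1, UHRF1 and HELLS points lie above the line, with HELLS between -2.53 and -1.25 on the x axis and between -1.60 and -0.52 on the y axis.

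Over the 12 group means, DNMT1, UHRF1 and HELLS followed each other with Pearson's r of 0.987 to 0.995, and DNMT3B followed them with 0.885 to 0.910. DNMT3A and TET1 had an r of 0.67 and DNMT3A and TET2 one of -0.57. These are descriptions, without a p, over 12 group means that include the 2 vehicle groups. Among 12475 genes, the 3 most like DNMT1 were HMGB2 (0.997), HELLS (0.995) and MND1 (0.995). Those most like UHRF1 were MCM7 (0.998), H2AC16 (0.994) and E2F2 (0.994), and those most like HELLS were HMGB2 (0.998), MELK (0.998) and H2AC14 (0.996). Between 491 and 503 genes had an r above 0.9 with each of these members. DNMT3B was most like POLR2A (0.977), PPP1R10 (0.972) and LTB4R2 (0.958), with 232 genes above 0.9. DNMT3A (MINDY1 0.925, TNFRSF19 0.923, EPS8L1 0.921) had 7 and TET1 (PLEKHA2 0.940, ANKRA2 0.904, NAA80 0.902) had 3. TET3 (SUGP1 0.947, PTPN12 0.939, TEAD3 0.936) had 17 and TET2 (XKR8 0.848, RAP2C 0.844, EXT1 0.824) had 0.

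The wider pathway was counted by list, with the range over treatments of the share of all genes called beside each count. Of 8 partners of maintenance methylation, 5 were lower in each of the 5 treatments at 24 h (13.5% to 16.2% of all genes), and the list median lay between -1.53 and -0.76. After 72 h the count was 5 to 7 (15.3% to 19.8% of all genes) and the median -0.96 to -0.25. At most 1 was higher. PCLAF, which binds the replication clamp PCNA, had the lowest mean, -1.73 at 24 h (highest treatment -1.31) and -1.26 at 72 h (highest treatment -0.68), and was called in all 10 comparisons. UHRF2, the paralogue of UHRF1, had the highest, 0.14 and 0.15, with 1 of 5 treatments called at each time.

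The next list held 10 genes of the families that include the readers of methylated CpG. Its 24 h counts of 1 to 3 lower and 1 to 2 higher were near the share of all genes (13.5% to 16.2% and 14.3% to 18.6%). At 72 h 1 to 4 were lower and 2 to 4 higher, where 15.3% to 19.8% and 14.2% to 20.9% of all genes were. Medians were -0.06 to 0.02 and 0.01 to 0.09 at the respective times. ZBTB38 had the lowest mean at 24 h (-0.40, called in 4 treatments) and ZBTB33, which encodes Kaiso, the highest (0.30, called in 5). At 72 h MBD2 was lowest (-0.43, called in 5) and MBD6 highest (0.54, called in 5). Of 9 genes around base excision of oxidised cytosine, none was lower after 24 h and 0 to 5 were higher. Of all genes, 13.5% to 16.2% were lower and 14.3% to 18.6% higher. After 72 h the counts were 1 to 2 lower and 1 to 3 higher (15.3% to 19.8% and 14.2% to 20.9% of all genes). The medians were 0.13 to 0.16, then -0.02 to 0.23. NEIL1, a DNA glycosylase, had a mean of -0.13 at 24 h (0 called) and was highest at 72 h with 0.62 (3 called). GADD45B was highest at 24 h (0.52, 1 called), and the endonuclease gene APEX1 lowest at 72 h (-0.32, called in 5).

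Of 8 genes for the supply of methyl groups, the 24 h counts were 1 to 2 lower and 0 to 3 higher, beside 13.5% to 16.2% and 14.3% to 18.6% of all genes. After 72 h 3 were lower and 2 to 4 higher, beside 15.3% to 19.8% and 14.2% to 20.9%. Their medians were at most 0.11, then -0.07 to 0.06. MAT2A, which makes S-adenosylmethionine, the methyl donor, had the lowest mean at 24 h (-0.50, called in 5). At 72 h the methionine synthase gene MTR was lowest (-0.38, called in 5). Of 6 tested TET cofactor and partner genes, 1 was lower after 24 h, near the 13.5% to 16.2% of all genes. At that time 1 to 2 were higher, where 14.3% to 18.6% of all genes were. The 72 h counts were 0 to 1 lower and 2 to 4 higher, where 15.3% to 19.8% and 14.2% to 20.9% of all genes were. The list median was at most 0.12 in the first case and 0.24 in the second. IDH1, which makes the TET cosubstrate 2-oxoglutarate, was highest at 24 h (0.53, called in 5). At 72 h OGT, the O-GlcNAc transferase that binds TET proteins, was highest (0.48, called in 5) and IDH2 lowest (-0.16, called in 3). TRDMT1 was called in 0 of 10 comparisons with means of 0.07 and 0.02, and DNMT3L and CXXC4 did not pass the filter.

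**Figure D5:**
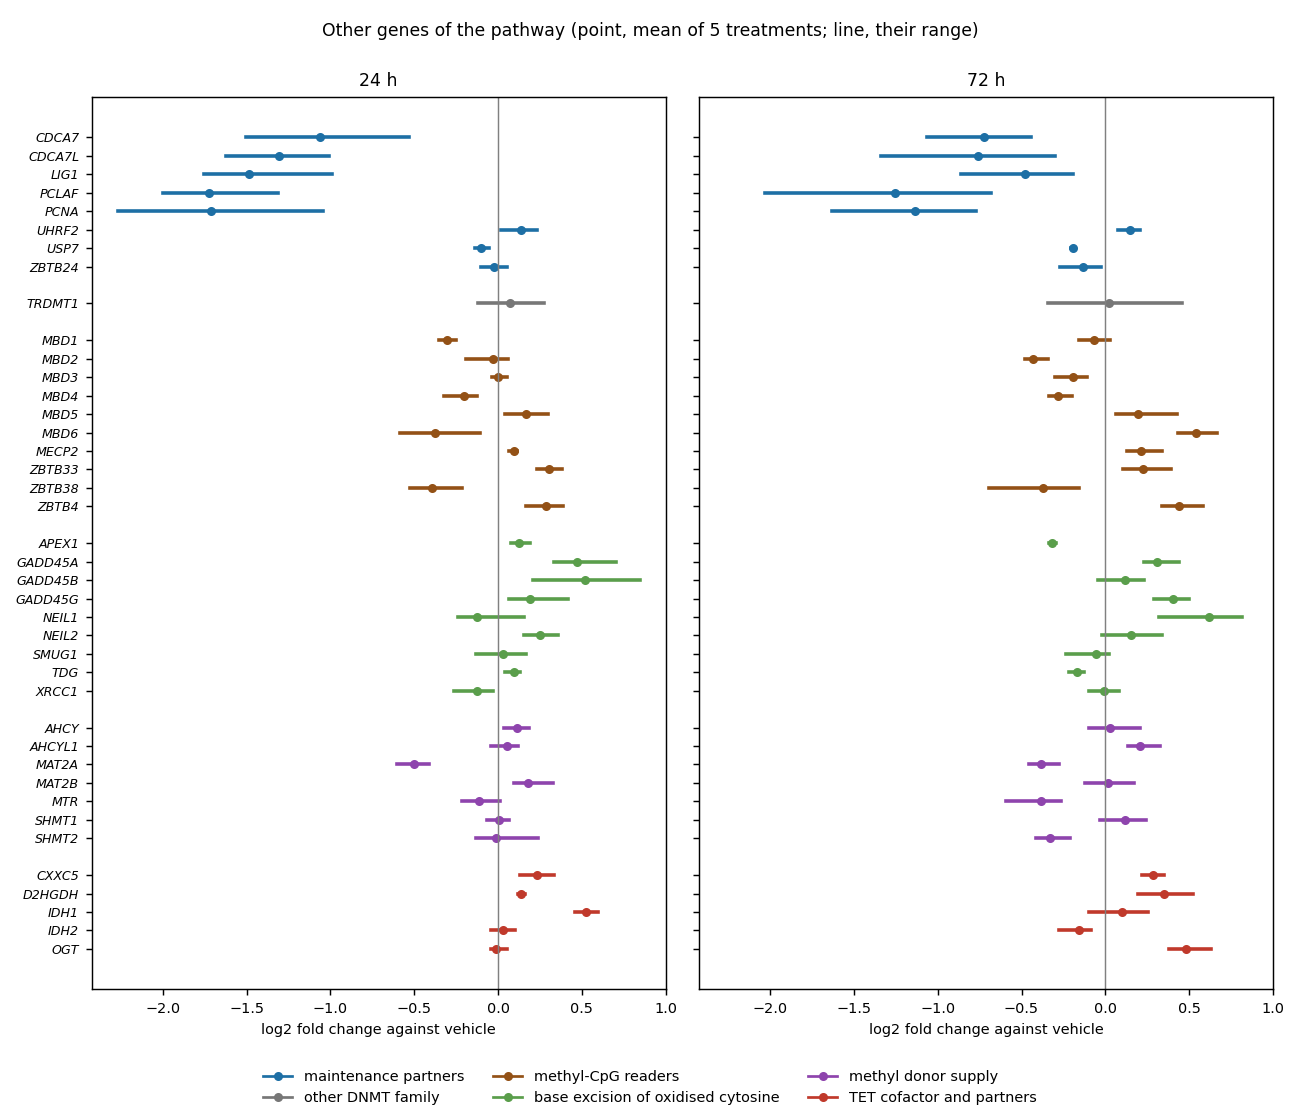
Log2 fold change against vehicle (x axis) of the other pathway genes reported here at 24 h and 72 h, points the mean of 5 treatments and lines their range, coloured by list. The partners CDCA7, CDCA7L, LIG1, PCLAF and PCNA lie below 0 in all treatments, with PCLAF at -1.73 and -1.26.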

How the data were processed

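RNA sequencing of 36 LNCaP libraries, in 12 groups of 3 taken from the sample labels, was used. The authors ran nf-core/rnaseq, aligned reads to GRCh38 with STAR 2.6.1d and used DESeq2, and deposited normalised counts. These deposited values are a signal in units near reads and are not whole numbers. The annotation release, counter and strand setting are not given in the sources used here. Count models were therefore not applied, and limma 3.58.1 (R 4.3.3, eBayes with trend) was fitted on log2(value + 1) for genes at 10 or above in 3 or more libraries. The 18 libraries of a time point, or all 36 for changes over time, shared a fit, and p-values were adjusted by Benjamini-Hochberg over all genes in each contrast. Fold changes are on this scale. The limma steps, but not the ratio tests, were tried on simulated data with planted changes in a small share of genes. Ratios were tested by exact permutation (scipy 1.17.1). Copies were found with BLAST 2.17.0, and gene positions came from GENCODE 44. Sequences are from RefSeq, and all 8 members matched.

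The depth in reads is unknown, so that precision rests on the spread between 3 libraries. Replicate numbers stand in the labels' batch field, and what a batch shared is not stated. Same-numbered libraries deviated from their group means with correlations across genes of -0.0755 to 0.0922 at 24 h and -0.0707 to 0.0365 at 72 h (45 pairs each). The reported fits have no replicate block, and a fit with it was an alternative. The members and lists were chosen with earlier results of these data known. Named genes were the 8 members, the list genes with the highest and lowest mean change per time point, and the 3 genes most like each member with a mean of at least 50. Of the genes this rule names, 2 are not reported here, though the list counts and medians include them. Alternatives covered the pseudocount, filters, normalisation (quantile, equal totals, TMM factors), trend, libraries fitted, replicate block and leaving out each library.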

Additional observations from a re-analysis of the deposited data

Results flagged for a closer look

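The difference from vehicle changed between 24 h and 72 h in 14 comparisons, by the test of the change itself in limma over 16850 genes. For DNMT1 the 72 h minus 24 h log2 change was 0.47 with AU2-94 at 1 µM, 0.74 with AU2-94 at 2 µM, 0.73 with atirmociclib at 1 µM, 0.64 with atirmociclib at 2 µM and 0.82 with ribociclib. For UHRF1 it was 0.70 with AU2-94 at 2 µM, 0.88 with atirmociclib at 1 µM, 0.95 with atirmociclib at 2 µM and 0.83 with ribociclib. For HELLS it was 0.68 with AU2-94 at 1 µM, 1.15 with AU2-94 at 2 µM, 1.18 with atirmociclib at 1 µM, 0.93 with atirmociclib at 2 µM and 1.04 with ribociclib. In vehicle these genes differed by -0.06, 0.09 and 0.05 between the times. Time and seeding density cannot be told apart in these values.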

How the results depend on the processing

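Against vehicle 49 of 80 member comparisons were called, and 44 to 52 under the other settings (46 to 51 on leaving out a library). Between agents 23 of 64 were called (21 to 24 on leaving out a library), for the change with time 14 of 40 (13 to 15), and for vehicle over time 0 of 8 throughout. Between doses 1 of 32 was called, 0 with eBayes without a trend, 2 with all 36 libraries in 1 fit, and 0 to 2 on leaving out a library. The replicate block gave 48 calls against vehicle, losing TET2 with AU2-94 at 1 µM at 24 h, and changed no other call. The change for DNMT1 with AU2-94 at 1 µM was lost with no filter on low values (adjusted p = 0.0517). On leaving out a library the ratio of UHRF1 to DNMT1 ran from -0.64 to -0.54 at 24 h and -0.69 to -0.38 at 72 h, HELLS to DNMT1 from -0.70 to -0.64 and -0.43 to -0.27, DNMT3B to DNMT3A from -1.21 to -0.90 and -1.01 to -0.74, TET1 to TET2 from 0.43 to 0.84 and 0.47 to 0.57, and TET3 to TET2 from 0.091 to 0.25 and 0.10 to 0.15. The TET1 to TET2 call at 72 h was lost on leaving out any vehicle, AU2-94, atirmociclib 1 µM or ribociclib library (largest adjusted p = 0.131). Equal totals moved the median of all genes by up to -0.10 on the log2 scale. No called value changed sign. Where a call changed with a setting, the cause was not tested.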
